A study of Mus musculus with 12 samples.

Results

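The genes described here make cholesterol, sense how much of it a cell holds, and move or esterify it inside the cell. They are 28 genes chosen by symbol from a table of 16970, and all 28 passed the filter on low values that left 10805 genes for testing. Of the 28, 19 encode enzymes of the route from acetyl-CoA to cholesterol, 4 belong to the SREBP system that sets the transcription of that route, and 5 handle cholesterol inside the cell. The cell surface step of uptake has no gene among them. Uptake is represented by genes that release cholesterol from lysosomes, namely Npc1 and Npc2.

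The 12 libraries hold liver polyA RNA of cholestatic mice, whose bile formation or flow is disturbed, and fall into 4 groups of 3. Groups are called by the titles of their libraries. BDL had the bile duct tied for 7 days and BDL_H, over the same 7 days, was given the bile acid hyodeoxycholic acid (HDCA) at 100 mg/kg on 4 days, beginning 3 days after surgery. MDR was taken as the untreated Abcb4-/- mouse, which lacks the phospholipid transporter of the bile canaliculus, because the series description names no other second model. MDR_H received HDCA at 100 mg/kg for 21 days from 60 days of age. No sex or strain is given for any group, and no age for the other groups. No sham-operated or wild-type liver is analysed here, and no value is set against a healthy one. The 2 models differ in surgery, genotype and duration and, but for MDR replicate 1, in reads of Y-linked genes (given below). These cannot be told apart in a comparison between the models. The labels do not tie each library to its own animal, so the p-values reflect only how much the libraries vary, and that variation may be technical.

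Several facts about the libraries bear on the comparisons between models. Abcb4 was at 150 to 181 FPKM in the libraries labelled MDR and at 129 to 165 in those labelled MDR_H, inside or just above its range of 52.8 to 178 in the ligated groups. FPKM is a fragment count scaled by gene model length and library depth. A gene-level value of this kind does not show whether an allele that still makes RNA is disrupted, so Abcb4 does not check the label, and every direction below for these groups rests on the titles. The summed FPKM of 4 Y-linked genes was 16.1 to 20.1 in the 6 ligated livers and in MDR replicate 1, and 0 to 0.0160 in the remaining 5 libraries of the MDR and MDR_H groups. Markers of hepatocytes, the main cell type of liver, summed to 51287 to 62154 FPKM in the ligated livers and to 36485 to 52245 in those labelled MDR or MDR_H. In bulk tissue, fewer cells of a type and less RNA per cell cannot be told apart. BDL replicate 1 and BDL_H replicate 2 stood apart from their groups, and results that rest on them are given with and without them.

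Cholesterol is built from acetyl-CoA through mevalonate, the isoprenoid diphosphates, squalene and lanosterol. When sterol in the endoplasmic reticulum runs low, the carrier Scap brings the precursors of the SREBP transcription factors to the Golgi, where proteases free the active factor, which then raises transcription of nearly every enzyme gene of the route. The Insig proteins hold Scap back while sterol is plentiful, and Insig1 is itself a target of SREBP. Liver is a main site of this synthesis and the organ that turns cholesterol into bile acids.

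SREBP acts at proximal promoters beside the general factors NF-Y and Sp1, so the 250 bases before the start site were read from RefSeq (GRCm38.p6) for the 22 of 28 members with an entry. The letters searched on either strand were CCAAT for NF-Y (ATTGG on the opposite strand), GGGCGG for Sp1 (CCGCCC on the opposite strand) and TCACNCCAC for the core of a sterol regulatory element (GTGGNGTGA on the opposite strand). No motif contains another. The promoters of 3 members are shown because they differ in these letters: Hmgcs1, the single member with the sterol element letters, and Mvd and Lss, both lower in the libraries labelled MDR. Capitals mark the matches, and each sequence reads 5′ to 3′ in the direction of the gene. Hmgcs1 is at chr13:119690101-119690350 on the plus strand, Mvd at chr8:122443423-122443672 on the minus strand, and Lss at chr10:76531355-76531587 on the plus strand. For Lss the last 17 of 250 bases were left out because an annotated exon covers them.
Hmgcs1: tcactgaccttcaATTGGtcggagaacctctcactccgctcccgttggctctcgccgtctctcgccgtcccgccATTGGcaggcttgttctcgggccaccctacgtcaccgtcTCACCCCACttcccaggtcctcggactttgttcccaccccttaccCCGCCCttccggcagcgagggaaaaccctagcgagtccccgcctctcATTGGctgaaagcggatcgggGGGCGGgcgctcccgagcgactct
Mvd: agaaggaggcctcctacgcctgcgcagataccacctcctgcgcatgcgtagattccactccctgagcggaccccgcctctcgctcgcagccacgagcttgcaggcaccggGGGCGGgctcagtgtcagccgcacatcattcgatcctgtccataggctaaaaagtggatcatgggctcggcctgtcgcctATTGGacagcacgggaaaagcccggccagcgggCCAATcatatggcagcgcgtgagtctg
Lss: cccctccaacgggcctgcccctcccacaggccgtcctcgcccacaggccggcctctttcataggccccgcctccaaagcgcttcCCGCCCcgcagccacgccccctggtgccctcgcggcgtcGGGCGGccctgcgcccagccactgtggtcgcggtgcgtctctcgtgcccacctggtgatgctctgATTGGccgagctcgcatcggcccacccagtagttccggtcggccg
A gene with more than 1 promoter entry was counted once, as holding the letters if any entry did. So counted, the CCAAT letters were in 20 of the 22 members (90.9%, absent from Acat2 and Scap) and in 40.4% of 8705 tested genes. Of all 32851 promoters, each counted alone, 33.8% held them. The GGGCGG letters were in 19 of 22 (86.4%), against 63.5% of tested genes and 32.7% of all promoters. The sterol element letters were in 1 of 22 members, against 1.30% of tested genes and 1.05% of promoters. All 7 members with a promoter entry that were called lower in MDR than in BDL (limma adjusted p under 0.05) held both the CCAAT and the GGGCGG letters. Of the other 15, some of them also lower but not called, 13 held the CCAAT and 12 the GGGCGG letters. A match of letters is a description and not a binding site, and the absence of a match says nothing of the factor.

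Among untreated livers, the 28 genes were mostly lower in the libraries labelled MDR than in ligated ones. Of the enzymes of the route, 10 fell, with FPKM means 1.67-fold to 3.88-fold lower, and 1, Ggps1, rose. A call here is an adjusted p under 0.05, by limma with Benjamini-Hochberg adjustment over all 10805 genes, on log2(FPKM + 1), a scale that understates the change of low genes. The 10 of 28 lower calls stood against a background of 1.07% of tested genes called lower, and the 1 higher call against 15.1%. Every MDR library was below every BDL library in 21 of 28 members, against 3.12% of tested genes, and above in 3, against 39.2%. The median difference was -0.77 on the log2 scale for the members and -1.09 for the 19 enzymes, and 0.25 over all tested genes. Counted by library, MDR replicate 1, the one with Y-linked reads, was below all BDL libraries in 21 of 28 members, and replicates 2 and 3 in 22 each, against 8.12%, 6.65% and 7.81% of tested genes. The part of the other differences between models in this result was not tested.

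**Figure D1:**
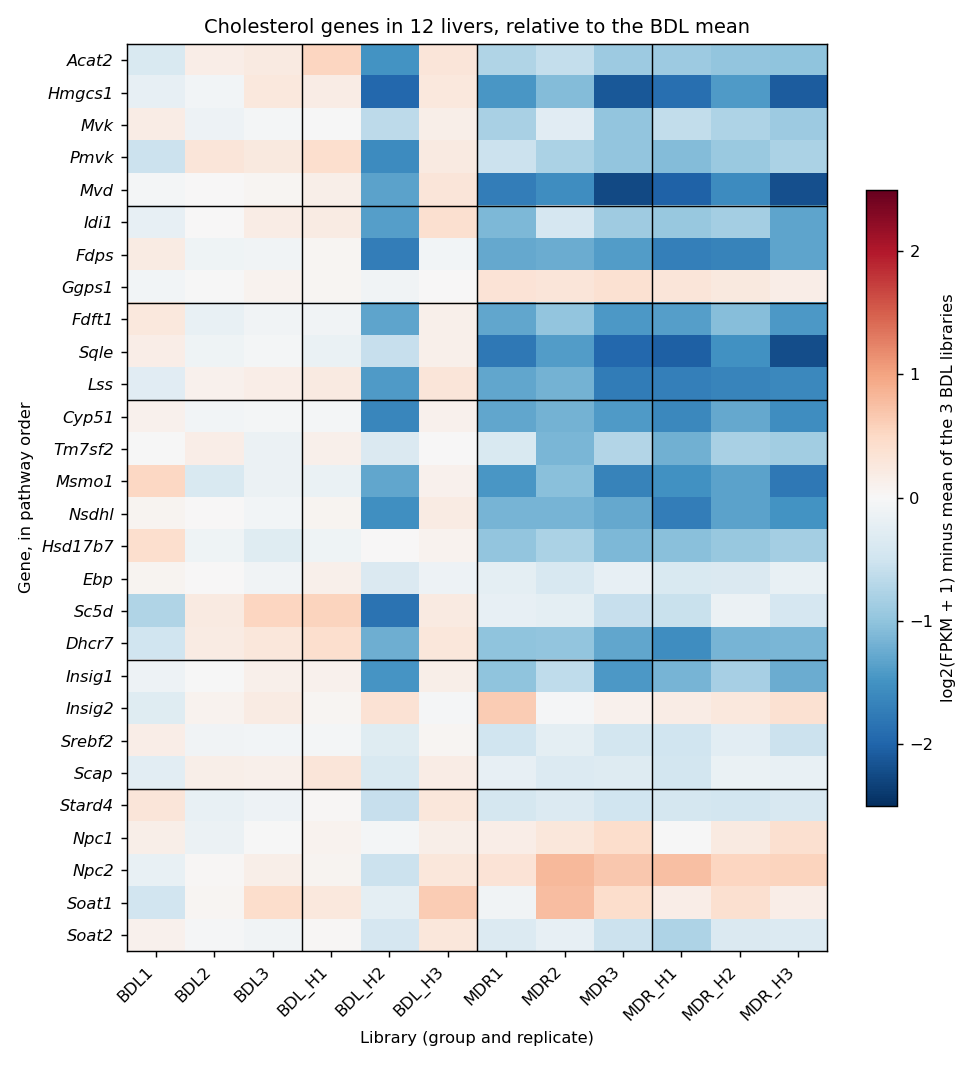
Heat map of the 28 genes in pathway order (vertical axis) in the 12 libraries (horizontal axis), coloured by log2(FPKM + 1) minus the mean of the 3 BDL libraries. The libraries labelled MDR and MDR_H are mostly below the BDL mean, and so is BDL_H replicate 2, while Ggps1 and Npc2 are above it in all 6 MDR and MDR_H libraries.

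The first enzymes carry acetyl-CoA to mevalonate and its phosphates. Mvd, the decarboxylase that makes isopentenyl diphosphate, was at 25.3, 26.1 and 26.9 FPKM in BDL and at 7.22, 8.25 and 4.71 in MDR. The spread in each group was small beside this gap, and the log2 difference was -1.84 ± 0.36 (SE, n = 3 a group; limma adjusted p = 0.00912). Hmgcs1, the synthase that condenses acetoacetyl-CoA, was at 198, 217 and 275 FPKM in BDL and at 82.7, 107 and 52.0 in MDR. Its groups did not overlap either, but at -1.55 ± 0.50 it missed the threshold (limma adjusted p = 0.0555). Acat2, Mvk and Pmvk, the thiolase and the kinases of this stretch, were also lower without overlap, at -0.75, -0.70 and -0.78, with limma adjusted p from 0.0534 to 0.214.

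The next enzymes make the isoprenoid diphosphates. Fdps, which makes farnesyl diphosphate, was at 437, 352 and 357 FPKM in BDL and at 157, 160 and 143 in MDR (log2 difference -1.31 ± 0.37; limma adjusted p = 0.0359). The lowest BDL library was above all MDR libraries by a wide margin. Idi1, the isomerase before it, was at 46.5 to 60.9 and 24.1 to 39.6 FPKM and was not called (limma adjusted p = 0.158). Ggps1 takes farnesyl diphosphate out of the sterol route towards protein prenylation. It was at 1.29, 1.37 and 1.53 FPKM in BDL and at 2.04, 1.95 and 2.11 in MDR. This was the single member called higher (0.34 ± 0.10; limma adjusted p = 0.0405), a direction that turned to -0.04 under quantile normalization.

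Farnesyl diphosphate then becomes squalene and lanosterol, and all 3 enzymes of this step fell. Sqle, the epoxidase that commits squalene to the sterol route, was at 76.4, 63.7 and 65.8 FPKM in BDL and at 19.0, 25.3 and 16.7 in MDR. Its log2 difference of -1.72 ± 0.22 had the smallest adjusted p of the members (limma adjusted p = 0.00213). Lss, which closes the first sterol ring system, was at 14.8, 19.7 and 20.3 against 6.73, 7.40 and 4.67 FPKM (-1.42 ± 0.37; limma adjusted p = 0.0271). Fdft1, squalene synthase, was at 38.3, 28.1 and 30.1 against 12.4, 15.6 and 11.2 FPKM (-1.24 ± 0.31; limma adjusted p = 0.0240). For all 3, every MDR library was below every BDL library.

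Of the 8 enzymes that turn lanosterol into cholesterol, 5 fell and 3 did not pass. Hsd17b7, a sterol 3-ketoreductase, was at 20.5, 14.0 and 12.1 FPKM in BDL and at 7.18, 8.30 and 6.46 in MDR (-0.96 ± 0.17; limma adjusted p = 0.00575). Msmo1, the C4 methyl oxidase, was at 199, 106 and 124 against 49.7, 66.0 and 42.4 FPKM (-1.39 ± 0.34; limma adjusted p = 0.0210). Cyp51, the lanosterol demethylase, was at 105, 92.9 and 93.7 against 38.6, 42.2 and 35.7 FPKM (-1.30 ± 0.35; limma adjusted p = 0.0306). These 3 separated the groups in every library. Nsdhl, which works beside Msmo1 and lies on the X chromosome, was at 81.4, 78.9 and 73.9 against 34.2, 34.5 and 31.5 FPKM (-1.20 ± 0.35; limma adjusted p = 0.0405). Tm7sf2, a sterol C14 reductase, was at 80.6, 91.7 and 73.5 against 62.2, 36.3 and 48.9 FPKM (-0.75 ± 0.20; limma adjusted p = 0.0301). Both also separated the groups in every library. Dhcr7, the last reductase of one branch, was at 33.2, 54.8 and 57.7 against 23.1, 23.4 and 18.5 FPKM and missed the threshold (-1.09 ± 0.37; limma adjusted p = 0.0641). Ebp, the X-linked sterol isomerase, was at -0.28 and Sc5d, the sterol desaturase, at -0.35, where Sc5d alone of the 8 had overlapping groups.

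**Figure D2:**
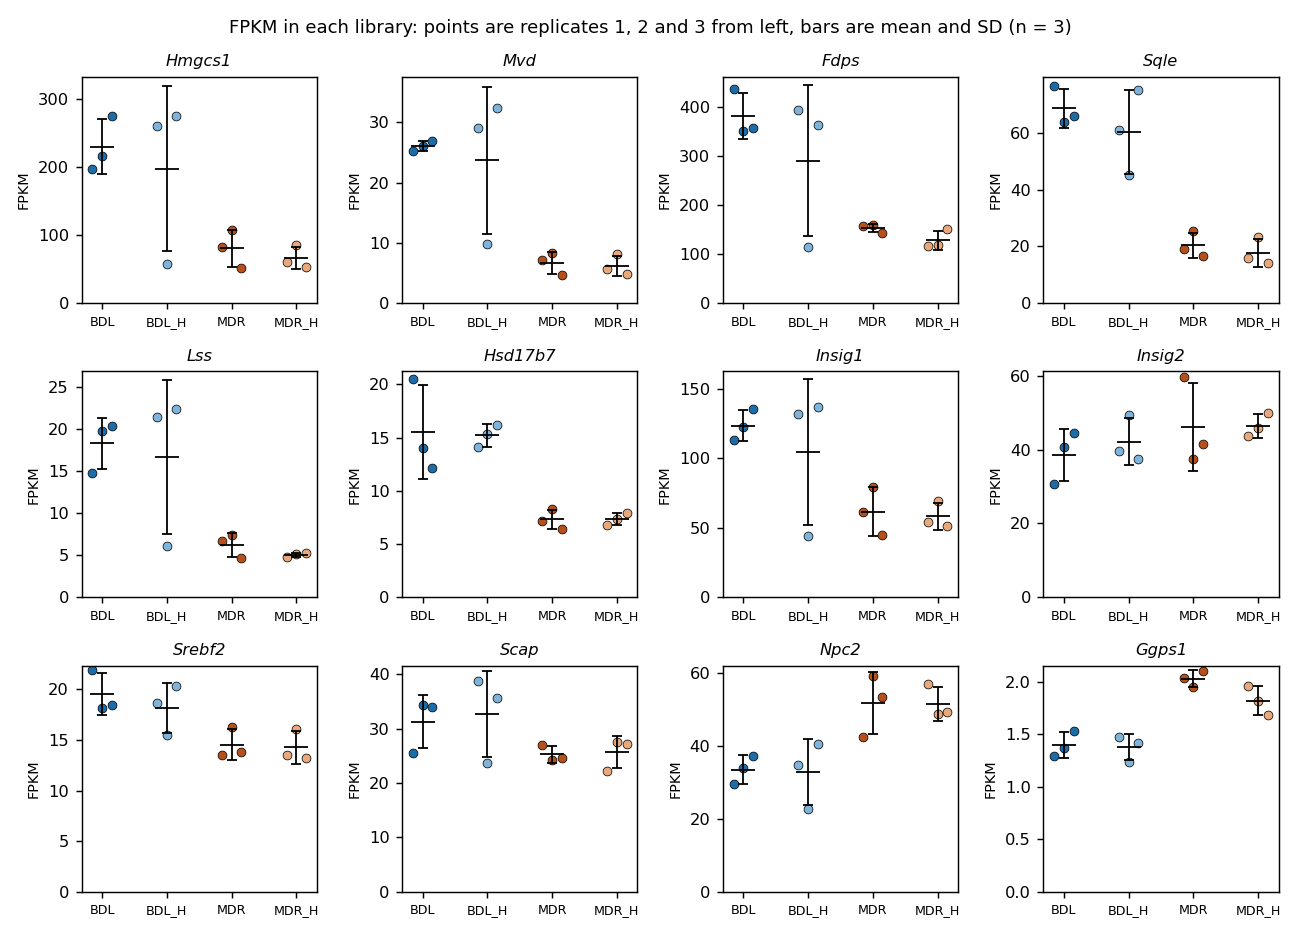
FPKM (vertical axis, from 0) of 12 members in each of the 4 groups (horizontal axis); points are the replicates and bars the mean and SD of 3. Sqle, Mvd and Hsd17b7 are lower in all MDR and MDR_H libraries than in any BDL or BDL_H library, while BDL_H replicate 2 is low for Hmgcs1, Mvd, Fdps and Lss but not for Hsd17b7.

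The 4 genes of the SREBP system gave no call. Srebf2, the SREBP that drives this route, was at 21.9, 18.2 and 18.5 FPKM in BDL and at 13.5, 16.3 and 13.8 in MDR. These values did not overlap, at -0.40 ± 0.14 (limma adjusted p = 0.0653). Insig1 was at 113, 122 and 135 against 61.0, 79.3 and 44.7 FPKM, again without overlap (-1.02 ± 0.37; limma adjusted p = 0.0771). Insig2, the sterol sensor that is not driven by SREBP in the same way, was at 30.8, 40.7 and 44.4 against 59.7, 37.4 and 41.4 FPKM, with overlap (0.24 ± 0.19; limma adjusted p = 0.377), and turned to -0.12 under median-of-ratios scaling. Scap was at 25.6, 34.4 and 34.0 against 27.0, 24.2 and 24.6 FPKM, where MDR replicate 1 was above BDL replicate 1 (-0.29 ± 0.18; limma adjusted p = 0.269). The FPKM of Insig1 divided by that of Insig2, a ratio chosen after its values were seen and not tested, was 2.99 to 3.68 in BDL and 1.02 to 2.12 in MDR.

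Genes of sterol handling inside the cell were not lower as a group, and none of the 5 was called. Npc2, which takes cholesterol off lipoproteins in the lysosome, was at 29.4, 33.9 and 37.2 FPKM in BDL and at 42.5, 59.1 and 53.5 in MDR (0.61 ± 0.20; limma adjusted p = 0.0584). Npc1, its partner in the lysosomal membrane, was at 21.9 to 27.2 and 27.4 to 33.3 FPKM, higher in every MDR library (0.30 ± 0.14; limma adjusted p = 0.144), a direction that turned to -0.06 under median-of-ratios scaling. Stard4, a cytosolic sterol carrier, and Soat2, the sterol ester synthase of hepatocytes, were lower without overlap at -0.43 and -0.35, with limma adjusted p of 0.146 and 0.187. Soat1, the ester synthase of macrophages among other cells, was at 0.890 to 2.58 and 1.49 to 3.52 FPKM with overlap. Macrophage markers summed to 272 to 610 FPKM in BDL and 765 to 1587 in MDR. Lyz2 alone was at 83.3, 170 and 176 FPKM in BDL and at 394, 1034 and 653 in MDR. Of the 7 markers, 2 were called higher, Lyz2 and C1qa, while Cd68, Clec4f and Cd5l overlapped between the groups. The part of macrophages in the values of these genes was not tested.

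The HDCA-treated livers gave the same comparison in 6 other libraries, and it is smaller in number of calls. Of the enzymes, 5 fell in MDR_H against BDL_H and no member rose, against backgrounds of 0.935% lower and 7.36% higher. The median was -0.71 for the members and 0.20 over all tested genes. All 5 were also called lower among untreated livers. Sqle was at 61.0, 45.3 and 74.9 FPKM in BDL_H and at 15.8, 23.2 and 14.0 in MDR_H (-1.72 ± 0.22; limma adjusted p = 0.00329). Hsd17b7 was at 14.1, 15.3 and 16.2 against 6.80, 7.38 and 7.96 FPKM (-0.95 ± 0.17; limma adjusted p = 0.0122). For both genes every MDR_H library was below every BDL_H library, and both calls held in all 23 alternative settings of both comparisons. Mvd was at 29.1, 9.76 and 32.3 against 5.68, 8.10 and 4.89 FPKM (-1.64 ± 0.36; limma adjusted p = 0.0260), where BDL_H replicate 2 came close to the highest MDR_H library. Tm7sf2 was at 89.8, 62.9 and 81.9 against 34.8, 46.0 and 44.2 FPKM (-0.89 ± 0.20; limma adjusted p = 0.0276). Lss was at 21.4, 6.15 and 22.4 against 4.82, 5.09 and 5.25 FPKM (-1.36 ± 0.37; limma adjusted p = 0.0465), and it was called in 7 of 23 alternative settings.

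The number of members called in MDR_H against BDL_H depended strongly on 1 library. BDL_H replicate 2 was below both other BDL_H libraries in 26 of 28 members, and without it the count of lower calls in MDR_H against BDL_H went from 5 to 16, while lower calls over all genes went from 101 to 69 and higher calls from 795 to 190. No overlap between MDR_H and BDL_H was found in 6 members lower, against 4.55% of tested genes, and 2 higher, against 32.4%. Over all 12 libraries, every library labelled MDR or MDR_H was below every ligated one for Mvd, Sqle, Tm7sf2 and Hsd17b7 (1.21% of tested genes), and above for Ggps1 and Npc2 (19.4%). Without BDL_H replicate 2 the count of lower members was 21, against 194 of all 10805 tested genes. As that library was low for most members, leaving it out favours such rises in the counts. Npc2 was at 34.8, 22.8 and 40.6 FPKM in BDL_H and 56.9, 48.6 and 49.2 in MDR_H (0.67 ± 0.20; limma adjusted p = 0.0589). Ggps1 was at 1.48, 1.24 and 1.42 FPKM against 1.96, 1.82 and 1.69 and was not called (limma adjusted p = 0.134).

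**Figure D3:**
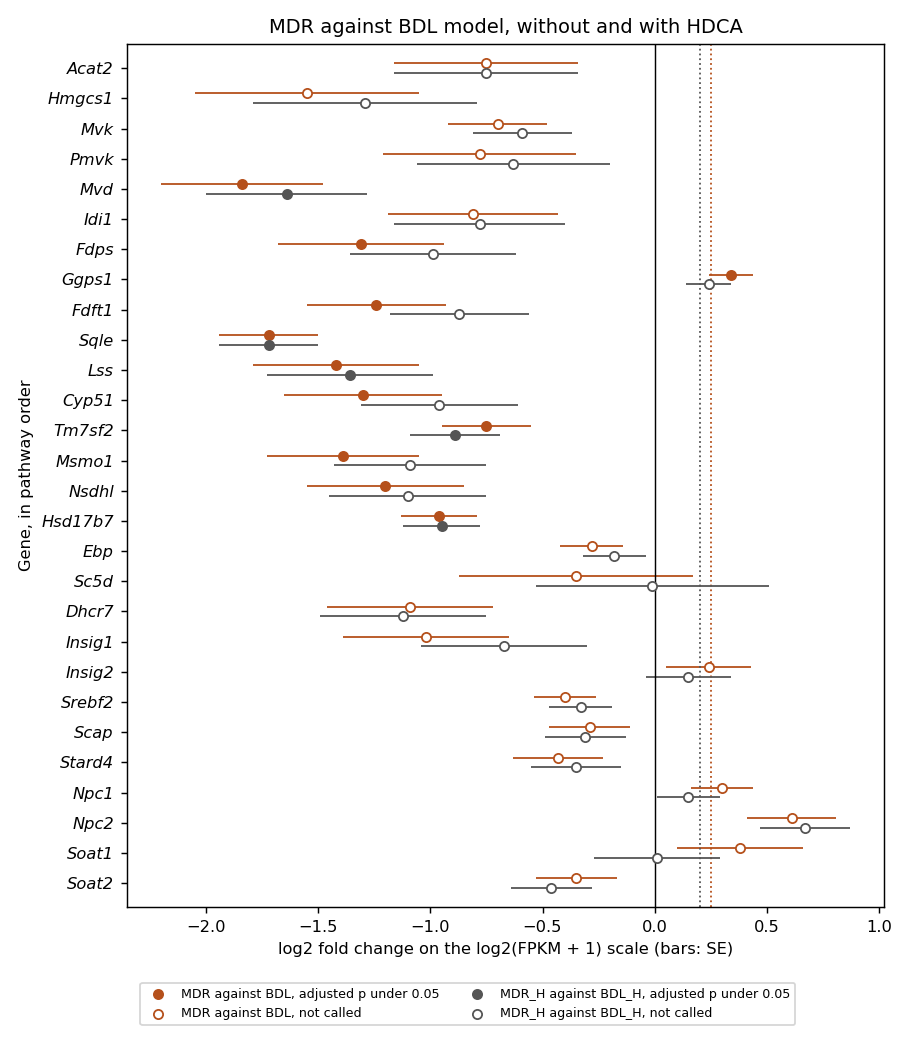
Log2 fold change with its SE (horizontal axis, log2(FPKM + 1) scale) for each gene in pathway order (vertical axis), for MDR against BDL and MDR_H against BDL_H. Most enzymes lie left of 0 in both, Sqle at -1.72 in each, and Ggps1 and Npc2 lie to the right.

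The number of called members moved with single libraries more than their direction did. In MDR against BDL, the members called lower or higher numbered 11 with all libraries. Without BDL replicate 1, 2 or 3 there were 4, 4 and 7 calls. Lower calls over all genes were 139, 53 and 94, in place of 116, and higher calls 1013, 812 and 1613, in place of 1630. Without MDR replicate 1, 2 or 3 there were 7, 5 and 3 calls. Over all genes these fits gave 89, 37 and 62 lower calls and 1274, 440 and 614 higher. Without BDL_H replicate 2 there were 21 calls, where calls over all genes were 2168 higher and 178 lower. Mvd, Sqle and Hsd17b7 were among the calls in each of these fits. The median of the members stayed between -0.87 and -0.72. In MDR_H against BDL_H there were 2 calls without BDL_H replicate 1 or without any 1 MDR_H library, 3 without BDL_H replicate 3, and 16 without BDL_H replicate 2, beside 5 with all. Lower calls over all genes were 64, 22 to 23, 43 and 69 in that order, in place of 101. Higher calls were 338, 148 to 215, 419 and 190, in place of 795. Scaling mattered too. Median-of-ratios scaling moved the median of all tested genes from 0.25 to -0.05 in MDR against BDL, and quantile normalization to -0.02. On these scales 20 and 16 members were called lower and none higher, and calls over all genes split into 640 higher and 486 lower, or 548 and 393, in place of 1630 and 116.

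In ligated livers, HDCA moved no member past the threshold. None of the 28 was called in BDL_H against BDL, and the background was also 0%: none of 10805 genes was called by limma or by limma-voom on recovered reads, 243 genes had an unadjusted p under 0.05, and no member did. The median of the members was -0.19, against 0.03 over all tested genes, with 23 of 28 estimates below 0. No member had groups without overlap, against 3.43% of tested genes higher and 1.59% lower. Without BDL_H replicate 2 the median was 0.13, against 0.12 over all tested genes.

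The 3 largest estimates show this. Fdps was at 395, 114 and 363 FPKM in BDL_H beside 437, 352 and 357 in BDL (-0.58 ± 0.37; limma adjusted p = 1.00). Cyp51 was at 93.9, 30.6 and 105 beside 105, 92.9 and 93.7 (-0.52 ± 0.35; limma adjusted p = 1.00). Hmgcs1 was at 260, 57.7 and 275 beside 198, 217 and 275 (-0.50 ± 0.50; limma adjusted p = 1.00). In each, replicates 1 and 3 of BDL_H were near the BDL values and replicate 2 was far below. Without that library the estimates of Cyp51 and Hmgcs1 were above 0, at 0.03 and 0.23.

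BDL_H replicate 2 held the lowest value of the 6 ligated livers for 24 of 28 members, against 33.6% of tested genes. Relative to the mean of the other 2 BDL_H libraries, Sc5d was at 20.4%, Hmgcs1 at 21.6%, Pmvk at 24.7% and Acat2 at 25.5%. Sqle was at 66.7%, Tm7sf2 at 73.3% and Srebf2 at 79.4%, while Hsd17b7 was at 101% and Insig2 at 128%. The enzymes were thus not lower by one common share in this library, and summed enzyme FPKM was 647 there, against 1732 and 1718 in the others of its group and 1549 to 1638 in BDL. Its hepatocyte marker sum of 59822 lay inside the range of its group, and its cholangiocyte, macrophage, stellate, endothelial, lymphocyte and erythroid sums, at 128, 274, 121, 97.9, 0.549 and 170, were the lowest of its group. Its neutrophil sum, at 72.6, was between the 24.5 and 89.8 of the others in its group. The part of these cell types in the enzyme levels was not tested. BDL replicate 1, the other library that stood apart, was the lowest of 6 for 2 members (46.4% of tested genes), above both other BDL libraries in 13 and below both in 14. The median coefficient of variation of the members was 43.4% in BDL_H and 12.9 to 14.9% in the other groups.

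**Figure D4:**
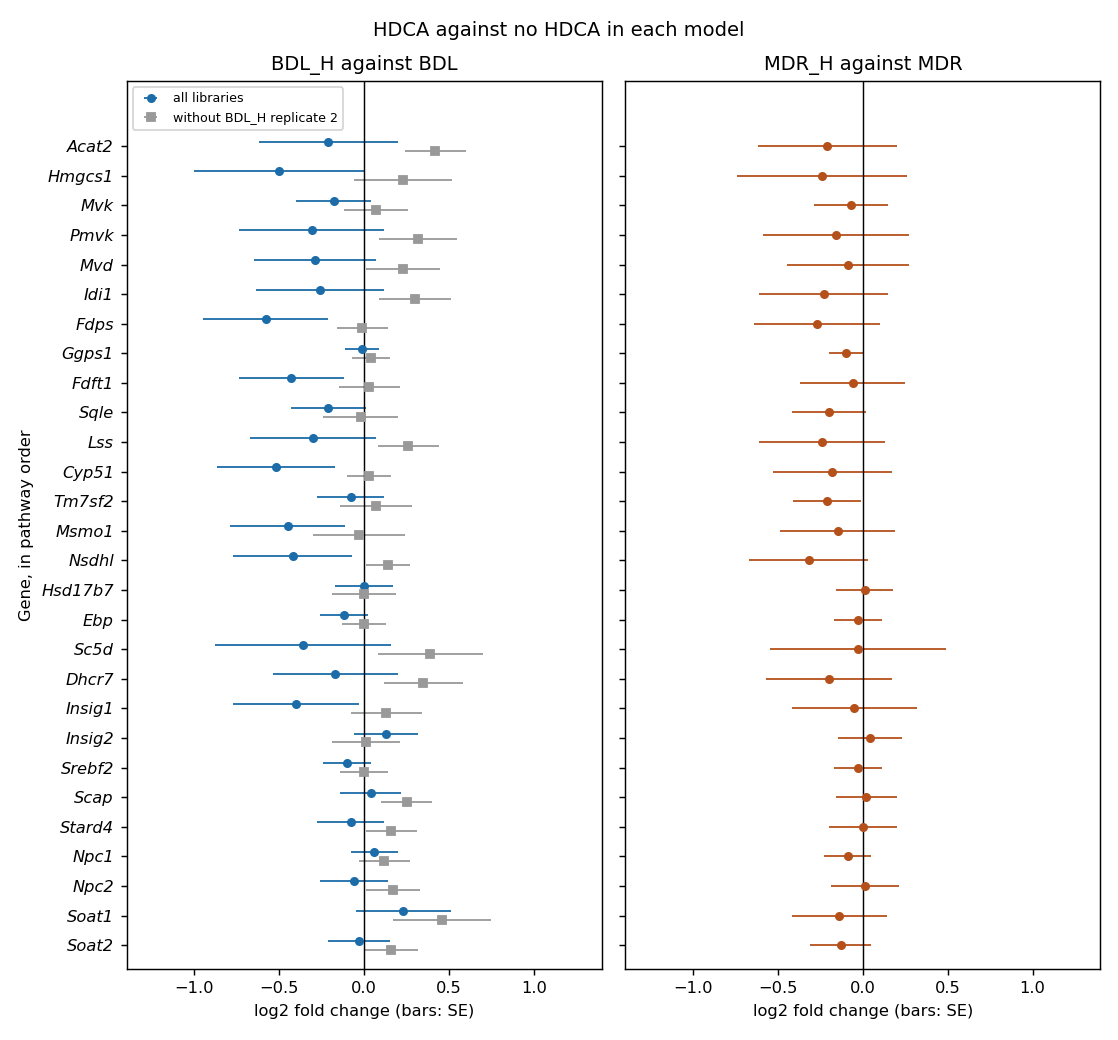
Log2 fold change with its SE (horizontal axis) of HDCA against no HDCA for each gene in pathway order (vertical axis), with BDL_H against BDL on the left, with and without BDL_H replicate 2, and MDR_H against MDR on the right. The left points shift towards or past 0 once that library is left out, from a median of -0.19 to 0.13, and the right points lie near 0 with a median of -0.12.

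In the libraries labelled MDR, 21 days of HDCA also gave no call among the 28 genes, with a background of 0%. No gene was called by limma or limma-voom, and 61 of 10805 genes and none of the members had an unadjusted p under 0.05. The median of the members was -0.12, against -0.04 over all tested genes, and 24 of 28 estimates were below 0. Nsdhl had the largest, at 34.2, 34.5 and 31.5 FPKM in MDR and 22.9, 30.1 and 26.9 in MDR_H (-0.32 ± 0.35; limma adjusted p = 1.00). Fdps was at 157, 160 and 143 beside 116, 118 and 151 FPKM (-0.27 ± 0.37; limma adjusted p = 1.00). Lss was at 6.73, 7.40 and 4.67 beside 4.82, 5.09 and 5.25 FPKM (-0.24 ± 0.37; limma adjusted p = 1.00). The groups overlapped for Fdps and Lss, and Nsdhl and Acat2 were the 2 members with every MDR_H library below every MDR library, against 4.60% of tested genes lower and 1.35% higher. The regulators Srebf2, Scap, Insig1 and Insig2 lay between -0.05 and 0.04. Y-linked genes summed to 20.1 FPKM in MDR replicate 1 and to at most 0.0160 in MDR_H. The part of this difference in the comparison was not tested.

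Whether HDCA acted differently in the 2 models was tested as the difference of the 2 effects. No member and no other gene was called by limma or limma-voom (background 0%), and no member had an unadjusted p under 0.05, against 200 of all tested genes. The median difference was 0.07 for the members with all libraries and -0.22 without BDL_H replicate 2, against -0.07 and -0.16 over all tested genes. With 3 libraries a group, the absence of a call does not show that HDCA left these genes as they were. 

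**Figure D5:**
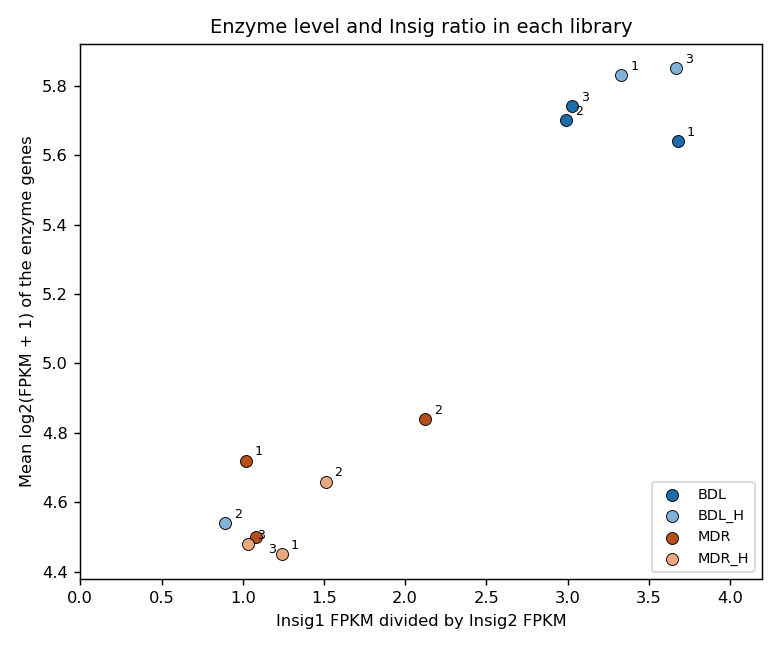
Mean log2(FPKM + 1) of the 19 enzyme genes (vertical axis) against the FPKM of Insig1 divided by that of Insig2 (horizontal axis) in each of the 12 libraries, coloured by group. The ligated livers other than BDL_H replicate 2 lie at a ratio of 2.99 to 3.68 with enzyme means of 5.64 to 5.85, and BDL_H replicate 2, at 0.890 and 4.54, lies beside the libraries labelled MDR and MDR_H.

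Levels of the whole route can be read from 1 value per library. The mean log2(FPKM + 1) of the 19 enzymes was 5.64, 5.70 and 5.74 in BDL and 5.83, 4.54 and 5.85 in BDL_H. It was 4.72, 4.84 and 4.50 in MDR and 4.45, 4.66 and 4.48 in MDR_H. The MDR and MDR_H values lay close together, all below the 5 ligated livers other than BDL_H replicate 2. The ratio of Insig1 to Insig2 was 0.890 in that library, 3.33 and 3.67 in the others of its group and 1.03 to 1.51 in MDR_H. Both genes are also members of the set, so the ratio is a description.

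The rest of the pathway was read from 7 lists with 47 genes, chosen with earlier results of these data known, of which 43 were tested. Pdss1, Vldlr and Gramd1b did not pass the filter and Faxdc2 was not analysed here. In MDR against BDL, 5 of 43 rose and none fell, against 15.1% of tested genes called higher and 1.07% lower. Among the 5 were Mbtps1, a protease that cleaves SREBP, Mylip, a ligase that degrades lipoprotein receptors, Nceh1, an ester hydrolase, and Osbpl2, a sterol transfer protein. Mylip had the largest change, from 2.08, 2.36 and 4.35 FPKM in BDL to 5.56, 7.80 and 8.84 in MDR (1.12 ± 0.26; limma adjusted p = 0.0177), and it was at 7.18 in BDL_H replicate 2, above both others of its group at 3.63 and 3.67. Mbtps1 changed by 0.44, Nceh1 by 0.66 and Osbpl2 by 0.39. All 5 stayed above 0 but lost the call under quantile normalization and under median-of-ratios scaling, where Mylip was at 0.82 and 0.83 and Mbtps1, Nceh1 and Osbpl2 at 0.07 to 0.37. By list, the calls were 1 of 8 genes of SREBP cleavage and sterol-regulated degradation, 2 of 5 of lipoprotein and lipid uptake and 2 of 9 of sterol transfer and ester hydrolysis. There were none among 4 genes of acetyl-CoA supply, 5 of cofactors and reductases, 7 of isoprenoid branches and 5 of sterol efflux. The median of the 43 was 0.15, against 0.25 over all tested genes. In MDR_H against BDL_H, 1 of 43 rose, Osbpl2, at 5.63, 5.41 and 6.44 FPKM in BDL_H and 8.58, 8.47 and 8.15 in MDR_H (0.46 ± 0.11; limma adjusted p = 0.0295), a call that was likewise lost on both scales. The share of all tested genes called higher there was 7.36%. Acss2, which makes acetyl-CoA for lipid synthesis, was at 70.9, 179 and 140 FPKM in BDL and 45.9, 41.6 and 34.5 in MDR, and 37.5 in BDL_H replicate 2. Its difference of -1.56 ± 0.52 missed the threshold (limma adjusted p = 0.0631). No gene of these lists was called for HDCA in either model.

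Markers of several cell types that surround hepatocytes differed between the models too. Stellate and fibroblast markers summed to 60.3 to 119 FPKM in BDL and 216 to 433 in MDR, with 6 of 8 called higher. Cholangiocyte markers summed to 119 to 404 and 328 to 514, with 4 of the 6 tested called higher. Most of that sum was Spp1, at 102 to 386 and 287 to 452 FPKM, which was not called. The share of all tested genes called higher was 15.1%. Endothelial markers summed to 23.9 to 106 and 119 to 145, with 3 of 7 called higher. Of the macrophage and erythroid markers tested, 2 of 7 and 3 of 5 were called higher. Only 2 of 7 lymphocyte markers, Cd79a and Nkg7, passed the filter. Both reached an FPKM of 1 mainly in MDR and MDR_H libraries, so the filter itself favoured their 2 higher calls. Neutrophil markers summed to 25.6 to 60.7 FPKM in BDL and 16.6 to 59.9 in MDR. Of the 4 tested, none was called, with 3 estimates below 0 and 1 above. Hepatocyte markers summed to 53654 to 55014 in BDL and 38673 to 45622 in MDR, with 1 of 8, Apoa1, called lower. Most of that sum was Alb, at 29884 to 34756 and 20040 to 28313 FPKM, which was not called. Estimates of the 8 ran from -1.19 for Tat to 0.76 for Cyp3a11, with 5 below 0 and 3 above. The neutrophil marker Ly6g and the lymphocyte markers Cd3d, Cd8a and Ms4a1 were listed at 0 in at least 1 library. The part of cell composition in the lower enzyme levels was not tested.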

How the data were processed

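Per the labels' protocols, the 12 libraries were made with a VAHTS Universal V6 kit from TRIzol-extracted liver RNA (polyA). The authors deposited 1 table of FPKM values. Tools listed in the submitters' processing notes are HISAT2 2.0.5, featureCounts 1.5.0-p3, fastp, CASAVA 1.8 and DESeq2 1.20.0, with the build GRCm38. Strandedness, step order and annotation release were not given in the sources used here. If strand was ignored, a gene and its antisense partner share reads. FPKM sums were 460650 to 491265 per library. FPKM is a ratio of whole reads, and reads recovered from its steps were whole within 0.02 of a read for 16968 of 16970 genes (99.99%; not Fn1 and Mmp9), with 34260782 to 40427855 per library. Soat1 had 167 to 630 of them per library, the fewest of the members, and Hmgcs1 7819 to 45011. No pair of libraries agreed within sampling noise (lowest chi-square per gene 31.1), and 0 columns were left unmapped.

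Genes with FPKM of at least 1 in at least 3 libraries (10805) were fitted as log2(FPKM + 1) with limma 3.58.1 (trend; R 4.3.3; Python 3.11.15 for other steps) on 4 group means over all 12 libraries (8 residual degrees of freedom), two-sided, with Benjamini-Hochberg adjustment at 0.05. The comparisons share this estimate of spread. BDL_H against BDL and MDR against BDL share the BDL libraries, and the like holds for each other pair with a group in common. The members, lists and tests were chosen with earlier results of these data known. Values per library are given for called members, the 3 largest estimates in each HDCA comparison and the 4 regulators. From each other list at most 3 genes with the smallest p could be named, and some genes of the lists are not reported here. Promoter windows are from RefSeq GRCm38.p6; gene coordinates were not needed otherwise.

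Replicate numbers are shared between groups. Between MDR and MDR_H, libraries with one number deviated from their group means with correlations of 0.438, 0.312 and 0.548. A pairing is possible there, but no label says what the numbers mark, and replicate 1 differs in Y-linked reads. Libraries with one number correlated at -0.430 to 0.431 between BDL and BDL_H and at -0.244 to -0.034 between the models. The main fit therefore assumed no pairing in any group. The replicate block, run as an alternative, puts 1 effect of the number on all 4 groups. The fit was tested on simulated data for MDR against BDL (10625 genes): 45.7% of changes of -1 and 83.7% of changes of -2 on the log2 scale were called, and 9 of 10430 unchanged genes. Alternatives were pseudocounts 0.1 and 0.5, no filter or a mean FPKM of at least 5, quantile normalization, median-of-ratios scaling, limma-voom on recovered reads, array weights, only the libraries compared, a replicate block, and leaving out libraries.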

Additional observations from a re-analysis of the deposited data

How the results depend on the processing

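The lower level of the members in MDR against BDL kept its direction in the median throughout, and limits on its count are large. With all libraries, 10 members were lower and 1 higher. The count lower was 16 with quantile normalization, 20 with median-of-ratios scaling (median -1.12), 23 with array weights and 19 without both BDL replicate 1 and BDL_H replicate 2. Lower calls over all genes were 393, 486, 746 and 359 in that order, in place of 116. The count of members was 3 to 19 when 1 library was left out (median -0.87 to -0.72), beside 37 to 178 over all genes. The count higher was 0 with quantile normalization, median-of-ratios scaling, only the libraries compared or the replicate block. It was also 0 with a mean FPKM of at least 5, a filter that left Ggps1 untested. It was 3 with array weights and 2 without both libraries, beside 4201 and 1869 over all genes in place of 1630. With 1 library left out it was 0 to 2. In MDR_H against BDL_H the count lower was 13 (quantile), 15 (median-of-ratios) and 3 (only the libraries compared). Lower calls over all genes were 339, 372 and 78, in place of 101. The count lower was 22 with array weights (1 higher, median -1.03, 562 over all genes) and 22 without both (median -1.12, 361 over all genes). With 1 library left out it was 2 to 16 (0 to 1 higher, median -1.12 to -0.44), beside 22 to 174 over all genes.

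With the replicate block, 9 members were lower and 0 higher in MDR against BDL, as Nsdhl (limma adjusted p = 0.0577) and Ggps1 (0.0672) lost the call, and 4 were lower in MDR_H against BDL_H, as Lss did (0.0722). It called 0 members for HDCA in each model and changed no other call of a member. Over all genes, calls in MDR against BDL went from 1630 higher and 116 lower to 1254 and 97. In MDR_H against BDL_H they went from 795 and 101 to 523 and 66.

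For HDCA, 0 members were called in every setting run. The median in BDL_H against BDL was 0.08 with array weights, 0.12 without both libraries and -0.39 to 0.13 with 1 left out. That of MDR_H against MDR was -0.21 to -0.04, and that of the difference -0.27 without both and -0.22 to 0.26 with 1 left out. Estimates for BDL_H against BDL turned for Fdps (array weights 0.06, without both 0.09; -0.90 to -0.01 with 1 left out), Cyp51 (without both 0.09; -0.84 to 0.03 with 1 left out) and Hmgcs1 (0.15 and 0.13; -0.89 to 0.23).

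In MDR against BDL, Ggps1 turned to -0.04 (quantile), Insig2 to -0.12 and Npc1 to -0.06 (median-of-ratios). In MDR_H against BDL_H, Ggps1 turned to -0.01 (quantile), Insig2 to -0.04 and -0.13, Npc1 to -0.03 and -0.12, and Soat1 to -0.24 and -0.17 (quantile and median-of-ratios), -0.08 (array weights) and -0.22 (without both). With 1 library left out Soat1 ran from -0.22 to 0.22 and Sc5d from -0.76 to 0.44. The cause of these changes was not tested.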
